A study of Mus musculus with 12 samples.

Results

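The genes described here are Spp1, which encodes the secreted protein osteopontin, and 7 genes for its cell surface receptors: Cd44 and the integrin subunit genes Itgav, Itgb1, Itgb3, Itgb5, Itga4 and Itga5. They were taken by symbol from a table of 53801 gene records, and each symbol matched 1 record. The group was chosen by biology (a ligand and its receptors) and by 1 measured value, the higher level of Spp1 in silenced than in control cells, so that contrast is given for Spp1 as a description without a test. Of the 8 genes, 7 had at least 1 FPKM (fragments mapped to a gene, scaled to transcript length and library size) in at least 3 of 12 libraries and entered the model over 13078 genes. Itgb3 did not.

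Libraries came from RAW264.7, a mouse macrophage-like line grown in DMEM with 10% FBS and used at passages 3 to 5. All cells carried a small interfering RNA (siRNA), either a control siRNA or one against Synbindin, the TRAPP vesicle-tethering subunit encoded by Trappc4 (silenced cells). Each kind was collected without lipopolysaccharide (LPS), the bacterial product sensed by Toll-like receptor 4, and after 4 h of LPS at 100 ng/ml, with 3 libraries per group. The labels do not say whether replicates were separate transfections, and the p-values therefore reflect the variation among these libraries, which may be technical. Only 1 line was used. Trappc4 had 14.1, 13.1 and 12.5 FPKM in control and 4.35, 7.17 and 6.15 FPKM in silenced libraries without LPS, and 13.8, 15.7 and 9.45 against 5.86, 7.71 and 8.26 FPKM with LPS. Silenced libraries were below control libraries at both times, and 44.5% and 56.1% of the mean remained. Neither difference was called by limma (adjusted p = 0.0558 and 0.12).

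Osteopontin is a phosphorylated glycoprotein of bone matrix that macrophages also secrete, and in macrophages it is known for roles in adhesion, migration and cytokine production. It binds integrins through an Arg-Gly-Asp motif (αvβ1, αvβ3, αvβ5 and α5β1) and through a neighbouring stretch exposed by thrombin cleavage (α4β1), and it binds forms of CD44, the hyaluronan receptor. An integrin is a pair of 1 α and 1 β subunit. Itgav, Itga4 and Itga5 encode α subunits, whereas Itgb1, Itgb3 and Itgb5 encode β subunits.

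The sequences just upstream of the start sites are shown for the ligand gene and for 3 receptor genes that rose or fell with LPS, with matches to known factor motifs. They come from RefSeq (GRCm38.p6), whose promoter table held 7 of the 8 genes, all but Itgb3. For Spp1, the first of its 2 listed start sites is shown. Each run covers the 250 bases before the start, 5′ to 3′ on the gene's strand: Spp1 chr5:104434861-104435110 (plus), Cd44 chr2:102901666-102901915 (minus), Itga5 chr15:103366792-103367041 (minus) and Itga4 chr2:79255176-79255425 (plus). The motifs were picked with these promoters already seen. Capitals mark matches on either strand to the motif GAGGAA of PU.1, a macrophage lineage factor. They also mark the RUNX factor motif TGTGGT on either strand. TATAAA, the motif of the TATA box, was searched on the gene's strand alone and at any position in the 250 bases.
Spp1: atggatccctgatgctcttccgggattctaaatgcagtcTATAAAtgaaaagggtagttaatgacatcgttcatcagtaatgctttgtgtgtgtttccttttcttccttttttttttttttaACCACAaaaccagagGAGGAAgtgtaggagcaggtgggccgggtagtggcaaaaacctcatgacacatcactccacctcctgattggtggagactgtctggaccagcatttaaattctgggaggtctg
Cd44: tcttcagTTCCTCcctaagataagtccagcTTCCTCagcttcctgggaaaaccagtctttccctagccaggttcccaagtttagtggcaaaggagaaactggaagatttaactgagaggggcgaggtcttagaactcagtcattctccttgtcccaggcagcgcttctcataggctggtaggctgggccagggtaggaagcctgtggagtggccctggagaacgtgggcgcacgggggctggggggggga
Itga5: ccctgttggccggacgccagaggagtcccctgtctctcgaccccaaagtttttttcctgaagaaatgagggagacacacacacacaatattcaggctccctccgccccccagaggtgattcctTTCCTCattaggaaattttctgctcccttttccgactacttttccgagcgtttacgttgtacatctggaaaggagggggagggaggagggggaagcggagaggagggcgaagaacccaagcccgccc
Itga4: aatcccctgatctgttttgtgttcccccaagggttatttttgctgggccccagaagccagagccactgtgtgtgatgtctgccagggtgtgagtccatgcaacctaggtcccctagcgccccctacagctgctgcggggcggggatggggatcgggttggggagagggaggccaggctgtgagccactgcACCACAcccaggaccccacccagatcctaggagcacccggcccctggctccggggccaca
The Spp1 stretch held 1 match to each of the 3 motifs, and none of the matches overlapped. Its TATAAA match lies at -211 to -206 from the start. Cd44 held 2 matches to the PU.1 motif and Itga5 held 1, all on the strand opposite to the gene. Itga4 held the RUNX motif and no PU.1 match. Of the windows not shown, Itgav had the PU.1 motif at -218 to -213 and -7 to -2, and Itgb1 at -9 to -4. Neither had the RUNX motif or TATAAA. The windows of Itgb5 and of the second Spp1 start site held none of the 3 motifs. Among 32851 promoter windows of the same length in the table, 23.3% held the PU.1 motif, 14% the RUNX motif and 7.59% the TATA box. TGANTCA (AP-1), CACGTG (the E-box of MITF and TFE factors) and the kB consensus, searched on both strands, had no match in any of the 8 windows listed for these genes, against 6.75%, 6.02% and 7.25% of all windows. A match is a string of letters and not a site shown to be bound.

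Spp1 (ENSMUSG00000029304, GRCm38 chromosome 5, 104435118 to 104441050, plus strand, protein-coding) was the most abundant of the 8 genes in each of the 12 libraries, and it ranked 23 to 53 among all gene records. Control cells without LPS had 739, 644 and 698 FPKM (replicates 1, 2 and 3), and silenced cells without LPS had 1184, 1242 and 886 FPKM. After LPS, control cells had 733, 701 and 664 FPKM and silenced cells 1414, 1346 and 1041 FPKM. Each silenced library was above each control library at both times, and the lowest silenced library was replicate 3 each time. Without LPS the control mean was 694 ± 47.6 FPKM and the silenced mean 1104 ± 191 FPKM (SD, n = 3 here and below), a ratio of 1.59. After LPS they were 699 ± 34.1 and 1267 ± 199 FPKM, a ratio of 1.81. On the log2(FPKM + 1) scale the differences were 0.66 ± 0.14 and 0.84 ± 0.14 (SE). These are the values that chose the group, and nothing is read from them. Among all genes tested, 9.86% had every silenced library above every control library without LPS, and 7.62% after LPS.

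**Figure D1:**
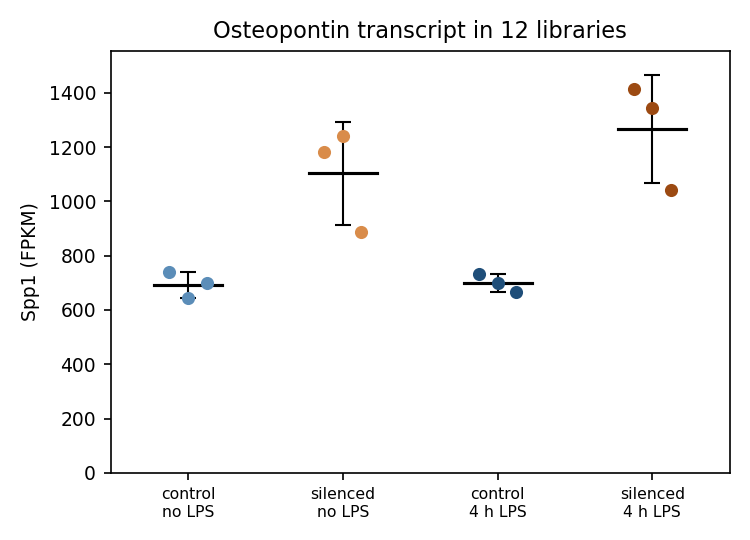
Spp1 level (FPKM, linear axis from 0) in each library of the 4 groups, with the group mean (horizontal line) and SD (bars). Silenced libraries lie between 886 and 1414 FPKM and control libraries between 644 and 739 FPKM. Within either kind of cell the libraries without LPS and after 4 h of LPS overlap.

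LPS did not give a call for Spp1 in either kind of cell. In control cells the log2 difference of LPS against none was 0.01 ± 0.14 (limma adjusted p = 0.947, 95% interval -0.29 to 0.32). For silenced cells it was 0.20 ± 0.14 (adjusted p = 0.256, interval -0.10 to 0.51), and it moved to 0.05 without replicate 3 of the silenced cells without LPS and to 0.34 without replicate 3 of those with LPS. The libraries with and without LPS overlapped in both. The difference between these responses was 0.19 ± 0.20 (interaction, adjusted p = 0.752). The call in silenced cells depends on scaling. The median log2 difference of all genes with LPS was -0.17 in control and -0.21 in silenced cells, and median-ratio scaling moved it to 0.01 in both. Under that scaling Spp1 was 0.24 (adjusted p = 0.147) in control and 0.48 (adjusted p = 0.00938) in silenced cells. With quantile normalization the values were -0.32 (adjusted p = 0.0909) and 0.04 (adjusted p = 0.850).

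Some macrophage markers moved with the Spp1 level and others did not. Of 8 macrophage markers with 1 record each, 7 were at 1 FPKM or more in all 12 libraries and Mertk was under 1 FPKM in all. Their summed level without LPS ranged from 1480 to 1609 FPKM (control) and 2065 to 2534 FPKM (silenced), and from 1335 to 1730 and 1849 to 2585 FPKM after LPS. Lyz2 made up much of that gap: leaving it out, the sums were 972 to 1042 and 1096 to 1190 FPKM before LPS, and 891 to 1246 and 1015 to 1369 FPKM after it. Cd14 was also higher without LPS, at 265 to 322 FPKM in silenced against 172 to 199 FPKM in control libraries, whereas Cd68, Csf1r, Ptprc, Adgre1 and Fcgr1 overlapped. After LPS Fcgr1 was at 31.8 to 38.0 FPKM in silenced and 18.6 to 20.4 FPKM in control libraries. Ptprc was at 19.7 to 24.2 and 16.0 to 18.8 FPKM, so both were higher in silenced cells. Among all genes 7.62% were separate in that direction after LPS. Cd14 and Adgre1 overlapped then. The ranges of Csf1r (136 to 199.8 and 158 to 236 FPKM) and Cd68 (362 to 407 and 386 to 488 FPKM) overlapped and reached lower in silenced cells. Estimated depth without LPS was 7.82 to 11.7 M (mega) fragments in control and 7.37 to 16.2 M in silenced libraries, and after LPS 10.0 to 12.9 M and 13.4 to 17.6 M. With this rough depth as a covariate the Spp1 differences were 0.71 without and 0.90 with LPS. The part of depth and of the macrophage markers in the Spp1 difference was not tested. In such bulk libraries a change in the number of cells of a type and a change in RNA per cell cannot be told apart. A transcript on the same strand as Spp1, Gm42793, overlaps it and had at most 7.62 FPKM.

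The genes most like Spp1 over the 12 libraries are listed as a description. A gene ranked this way tends to share the difference by which Spp1 was chosen. Among 7373 candidate genes, Pearson's r of log2(FPKM + 1) was highest for Clec4d, a C-type lectin receptor (0.95), Lyz2 (0.95) and Lyz1 (0.93), which encode lysozymes, Fabp5, a fatty acid-binding protein (0.92), and Hk3, a hexokinase (0.92). Mean Clec4d before LPS was 9.67 ± 1.76 (control) and 16.7 ± 6.55 (silenced) FPKM, and after it 9.73 ± 0.89 and 20.5 ± 4.26 FPKM, with overlapping libraries before LPS (8.54 to 11.7 and 10.2 to 23.3 FPKM). Mean Fabp5 before LPS was 9.43 ± 0.71 (control) and 17.2 ± 3.17 (silenced) FPKM, and after it 8.87 ± 0.28 and 14.8 ± 2.52 FPKM. Lyz1 and Lyz2 are near-identical copies, so their separate values are uncertain. These correlations describe 12 libraries that share their grouping and depth, and they carry no test. Among the receptor genes, Spp1 had r of 0.54 with Itgb1, 0.14 with Cd44, 0.09 with Itga5, -0.02 with Itgav and with Itga4, and -0.16 with Itgb5.

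Among the receptor genes, Itga5, Cd44 and Itgav rose with LPS, Itga4 fell, and Itgb1 and Itgb5 gave no call. This held in control and in silenced cells, so 4 of 7 tested genes (Spp1 included) were called in each, 3 higher and 1 lower. In control cells 48.2% of all tested genes were called, 15.3% higher and 32.9% lower, and in silenced cells 48.5%, 13% higher and 35.5% lower. The members' share of calls, 4 of 7, is near that background.

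Itga5 (ENSMUSG00000000555, chromosome 15, 103344286 to 103366763, minus strand) encodes α5, which pairs with β1 as the classical fibronectin receptor. The libraries without LPS had 86.4, 82.5 and 68.9 FPKM (control) and 66.6, 71.2 and 64.1 FPKM (silenced). Those with LPS had 255, 223 and 224 FPKM (control) and 237, 231 and 244 FPKM (silenced). All 6 LPS libraries were above all 6 without LPS. Ranges with and without LPS were separate for 56.2% of all genes in control and 57.8% in silenced cells. The log2 difference with LPS was 1.55 ± 0.09 in control (adjusted p = 1.83e-07) and 1.80 ± 0.09 in silenced cells (adjusted p = 4.82e-08), and these responses differed by 0.25 ± 0.13 (adjusted p = 0.495). The microRNA gene Mir6963 lies within Itga5 on the same strand and was listed at 14.5 to 74.3 FPKM, and reads counted for it cannot be told apart from those of Itga5.

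Cd44 (ENSMUSG00000005087, chromosome 2, 102811141 to 102901665, minus strand, 9 annotated transcripts) encodes the hyaluronan receptor CD44, whose splice forms the gene-level value does not separate. Control cells had 39.7, 49.9 and 48.6 FPKM without and 122.8, 109 and 156 FPKM with LPS. Silenced cells had 44.3, 47.8 and 48.7 FPKM without and 132, 130.2 and 162 FPKM with LPS. An opposite-strand record, Gm23731, overlaps Cd44 and had at most 7.49 FPKM. Both kinds of cell had separate ranges with and without LPS. The log2 difference was 1.46 ± 0.14 in control (adjusted p = 6.60e-06) and 1.57 ± 0.14 in silenced cells (adjusted p = 3.38e-06).

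Itgav (ENSMUSG00000027087, chromosome 2, 83724397 to 83806916, plus strand) encodes αv, the shared partner of β1, β3 and β5 in osteopontin-binding integrins. Control cells had 14.7, 24.9 and 22.5 FPKM without LPS and 72.6, 38.8 and 50.04 FPKM with LPS. In silenced cells the libraries had 14.3, 25.0 and 20.4 FPKM without and 44.2, 38.3 and 48.2 FPKM with LPS. Replicate 1 was the lowest library of both groups without LPS, and every LPS library was above every library without. The log2 difference was 1.32 ± 0.26 in control (adjusted p = 0.00123) and 1.12 ± 0.26 in silenced cells (adjusted p = 0.00346).

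Itga4 (ENSMUSG00000027009, chromosome 2, 79255426 to 79333123, plus strand) encodes α4, which with β1 binds VCAM-1, fibronectin and thrombin-cleaved osteopontin. The libraries without LPS had 154, 158 and 198 FPKM (control) and 169, 169.8 and 187 FPKM (silenced). Those with LPS had 81.3, 90.1 and 97.4 FPKM (control) and 109, 98.7 and 89.5 FPKM (silenced). Each of the 6 LPS libraries was below each library without LPS, and 52.7% of the mean level remained in control and 56.5% in silenced cells. On the log2 scale Itga4 fell by 0.91 ± 0.11 in control (adjusted p = 4.83e-05) and by 0.82 ± 0.11 in silenced cells (adjusted p = 9.72e-05). These 4 genes kept their call and direction in each of the 22 alternative analyses run.

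**Figure D2:**
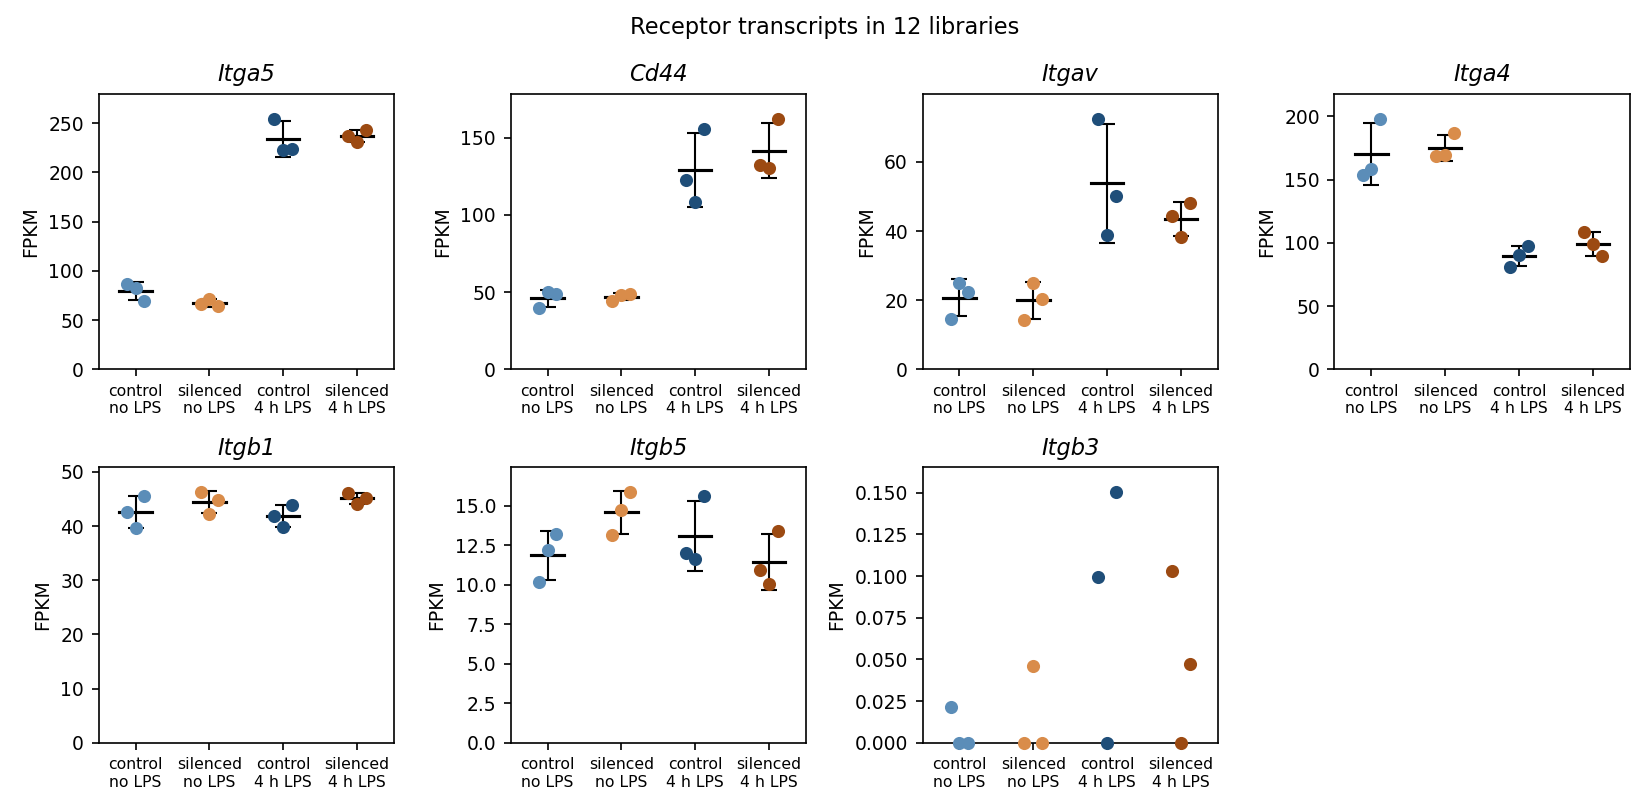
FPKM (linear axes from 0, a separate scale per gene) of the 7 receptor genes in each library of the 4 groups, with group mean (line) and SD (bars), which are left out for Itgb3. Itga5, Cd44 and Itgav are higher and Itga4 is lower after LPS, Itgb1 stays between 39.7 and 46.3 FPKM, and Itgb3 does not exceed 0.15 FPKM.

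Neither tested β subunit gene of the group was called with LPS. Itgb1 (ENSMUSG00000025809, chromosome 8, 128685654 to 128733200) encodes β1, the partner of both α4 and α5 and 1 of the partners of αv. Its group means were 42.6 ± 2.95 and 41.8 ± 2.06 FPKM in control cells without and with LPS, and 44.4 ± 2.04 and 45.1 ± 1.04 FPKM in silenced cells. The log2 differences with LPS were -0.03 ± 0.07 (adjusted p = 0.798, interval -0.19 to 0.14) and 0.02 ± 0.07 (adjusted p = 0.828, interval -0.14 to 0.18). These too depend on scaling: median-ratio scaling gave 0.19 (adjusted p = 0.0640) and 0.30 (adjusted p = 0.0101).

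Itgb5 (ENSMUSG00000022817, chromosome 16, 33829665 to 33949338) encodes β5, which pairs with αv. It ranged from 10.2 to 13.3 FPKM in control and 13.2 to 15.9 FPKM in silenced cells without LPS, and from 11.6 to 15.7 and 10.0 to 13.4 FPKM after LPS. The log2 difference with LPS was 0.13 ± 0.14 in control (adjusted p = 0.492) and -0.33 ± 0.14 in silenced cells (adjusted p = 0.0752). The difference between these responses was -0.46 ± 0.20, the widest of the 7 genes, with an unadjusted p of 0.0432 and an adjusted p of 0.424. Across all genes, 11.3% had an unadjusted p that low in the interaction. The value in silenced cells depends on scaling and on single libraries. It was -0.07 (adjusted p = 0.748) with median-ratio scaling and -0.14 (adjusted p = 0.506) with quantile normalization. It passed the threshold when each library was rescaled to a common sum (adjusted p = 0.0453) and when control replicate 3 or silenced replicate 3 of the LPS-treated cells was left out (adjusted p = 0.0490 and 0.0333).

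Itgb3 (ENSMUSG00000020689, chromosome 11, 104608000 to 104670476) encodes β3, which with αv forms the vitronectin receptor of osteoclasts. It was listed at 0 in 6 of 12 libraries and did not exceed 0.15 FPKM in the others, so no change could be assessed. Without LPS, 1 control library had 0.02 FPKM and 1 silenced library had 0.05 FPKM. After LPS, control libraries had 0.10, 0 and 0.15 FPKM and silenced libraries 0.10, 0 and 0.05 FPKM.

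**Figure D3:**
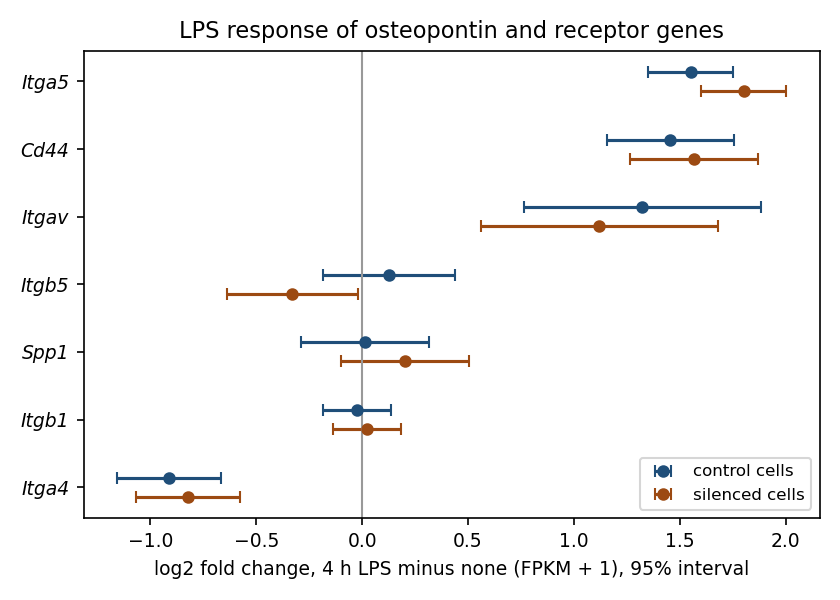
Log2 fold change of 4 h LPS against none on the log2(FPKM + 1) scale (points, with 95% intervals from limma) for the 7 tested genes in control and silenced cells. Itga5, Cd44 and Itgav lie between 1.12 and 1.80, Itga4 lies at -0.91 and -0.82, and the intervals for Spp1 and Itgb1 include 0 in both kinds of cell.

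The order of the receptor levels changed with LPS. FPKM is scaled to transcript length, so levels can be set side by side. In control cells without LPS the order of mean FPKM was Spp1, Itga4, Itga5, Cd44, Itgb1, Itgav, Itgb5 and Itgb3, and the only neighbours whose library ranges overlapped were Cd44 and Itgb1. Silenced cells without LPS had the same order, with Cd44 and Itgb1 and also Itgav and Itgb5 overlapping. After LPS the order in control cells was Spp1, Itga5, Cd44, Itga4, Itgav, Itgb1, Itgb5 and Itgb3. In silenced cells Itgb1 and Itgav changed places, and these 2 overlapped in both groups.

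Itga4 and Itga5 exchanged rank. The ratio of Itga5 to Itga4 FPKM was 0.56, 0.52 and 0.35 in control and 0.39, 0.42 and 0.34 in silenced cells without LPS. After LPS it was 3.13, 2.47 and 2.30 in control and 2.18, 2.34 and 2.72 in silenced cells. Every library without LPS was below 1 and every LPS library above it. Because both levels come from the same library, this ratio is the same under any scaling of whole libraries. Of the summed FPKM of the 3 α subunit genes, Itga4 made up 62.8% ± 4.92 in control and 66.8% ± 2.63 in silenced cells without LPS, and 23.9% ± 3.49 and 26.1% ± 2.29 after LPS. Itga5 went from 29.6% ± 5.20 and 25.7% ± 1.80 to 62.0% ± 1.53 and 62.5% ± 1.55, and Itgav from 7.63% ± 1.81 and 7.55% ± 1.84 to 14.1% ± 3.40 and 11.5% ± 1.12. The sum itself went from 270.1 ± 17.8 to 377 ± 28.9 FPKM with LPS in control cells and from 262 ± 11.5 to 379.7 ± 11.2 FPKM in silenced cells. The ratio was chosen after its values were seen and describes transcripts, not receptor protein.

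**Figure D4:**
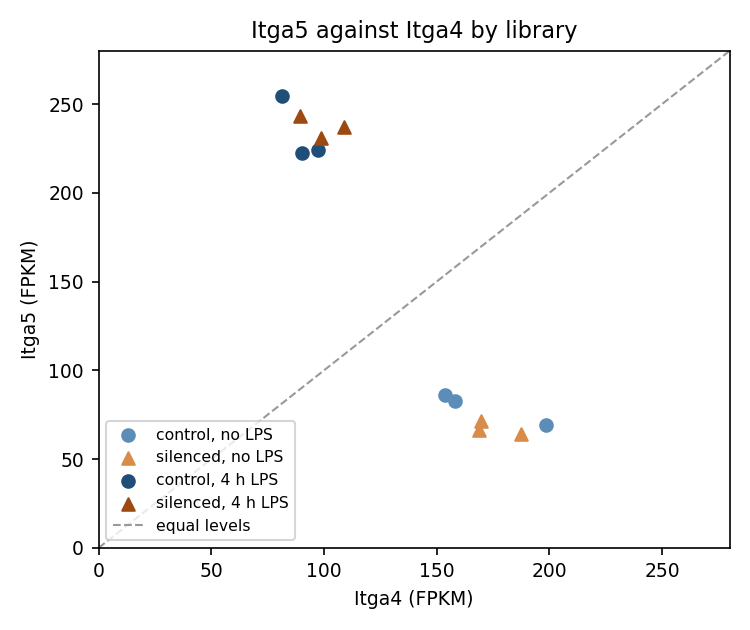
Itga5 level against Itga4 level (FPKM, linear axes from 0), 1 point per library, circles for control and triangles for silenced cells, with a dashed line at equal levels. The 6 libraries without LPS lie below the line, at 154 to 198 FPKM of Itga4, and the 6 LPS libraries lie above it, at 81.3 to 109 FPKM.

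Silencing itself gave no call among the receptor genes. Of the 6 tested receptor genes, 0 passed at either time with limma, against 0.214% of all genes without LPS and 0.719% after LPS, and 1 without LPS (Itga5) and 0 after LPS had an unadjusted p under 0.05. Among all genes 12% and 13% had an unadjusted p that low. With so few genes called, 0 of 6 says little on its own, and the intervals are given. Itgb1 after LPS was the 1 receptor gene with separate ranges, 44.1 to 46.1 FPKM in silenced and 39.8 to 43.9 FPKM in control cells, as were 7.62% of all genes in that direction. Without LPS the log2 difference, silenced minus control, was -0.23 ± 0.09 for Itga5 (adjusted p = 0.364, interval -0.43 to -0.03). The other intervals without LPS were -0.27 to 0.33 for Cd44, -0.61 to 0.51 for Itgav, -0.19 to 0.30 for Itga4, -0.10 to 0.22 for Itgb1 and -0.03 to 0.59 for Itgb5. After LPS they were -0.18 to 0.22 for Itga5, -0.16 to 0.44 for Cd44, -0.82 to 0.30 for Itgav, -0.10 to 0.39 for Itga4, -0.05 to 0.27 for Itgb1 and -0.49 to 0.14 for Itgb5. A doubling (a log2 difference of 1) lies outside each of these 12 intervals. In the interaction 0 of 7 genes were called, against 0.0612% of all genes, and 1 (Itgb5) had an unadjusted p under 0.05.

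The genes most alike to each receptor gene over the 12 libraries were Uba7 and Ifit3 for Itga5 (r = 0.998 and 0.996), Fbxo15 and Ikbke for Cd44 (0.995 and 0.993), Osbpl8 and St8sia4 for Itga4 (0.989 and 0.985), and Pstpip1 and Abi1 for Itgav (0.955 and 0.940). For Itgb5 they were Serp1 and Tmem41b (0.90 and 0.81) and for Itgb1 Vat1 and Ero1lb (0.83 and 0.81). Among the receptor genes, r was 0.96 between Cd44 and Itga5, 0.91 between Cd44 and Itgav, and -0.975 between Itga4 and Itga5. These values are descriptions over 12 libraries that share their grouping. Those of Itga5, Cd44, Itga4 and Itgav lie over points split by LPS, whereas mean Vat1 and Ero1lb were higher in silenced cells at both times and Serp1 was not split by LPS.

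Genes around the receptors were read from 6 lists, each given by its counts and its median log2 difference. With LPS in control cells the medians were 0.74 for other integrin subunits, -0.17 for adhesion adaptors, -0.54 for CD44 partners, 0.86 for other ligands, 0.14 for enzymes and -0.26 for transcription factors, beside -0.17 for all genes. With silencing without LPS they were 0.08, -0.04, -0.02, 0.04, 0.14 and -0.04 in that order, beside 0.01 for all genes, and after LPS 0.51, 0.04, -0.03, 0.16, -0.002 and -0.03, beside -0.03. The counts below are to be read against all genes: with LPS 15.3% were called higher and 32.9% lower (control), and 13% and 35.5% (silenced). With silencing 0.214% of all genes were called by limma without LPS and 0.719% after LPS. An unadjusted p under 0.05 was found for 12% and 13%. Itgal, Tnc and F10 (enzyme list) had means under 1 FPKM without LPS and passed the filter through their LPS libraries. Their rise with LPS was thus set by entry, and they are part of these counts and medians.

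Most other integrin subunit genes were below the filter. Of 21 with a single record, 4 passed the filter. With LPS, 3 rose in control and 3 in silenced cells: Itgal and Itgax, α subunits of leukocytes, and Itgb2, their β2 partner, whose call in control cells was lost with quantile normalization (0.12, adjusted p = 0.339). Itgal went from 0.76 ± 0.40 to 5.22 ± 0.31 FPKM in control cells and from 0.63 ± 0.30 to 8.70 ± 0.60 FPKM in silenced cells. Itgal passed the filter through its LPS libraries, so its rise was set by entry, though it is counted among the 3. Itgb2, at 92.1 ± 10.1 FPKM in control cells without LPS, was the most abundant β subunit gene examined. In silenced against control cells 0 of 4 were called by limma at either time (1 and 3 had an unadjusted p under 0.05). An unadjusted p that low was found for 12% and 13% of all genes. Itgax in control and silenced cells was at 6.46 ± 1.61 and 10.9 ± 2.35 FPKM (adjusted p = 0.282) before LPS, and at 15.1 ± 4.49 and 27.99 ± 1.95 FPKM (adjusted p = 0.105) after it. Itgam has 2 records that may divide its reads and was left out.

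Downstream of integrins, the list of activation and adhesion adaptors had 27 tested genes of 32. With LPS 10 rose and 7 fell in control cells and 8 rose and 6 fell in silenced cells. Src, the tyrosine kinase that acts with focal adhesion kinases, rose from 3.56 ± 0.16 to 39.2 ± 3.35 FPKM in control cells (3.14 ± 0.09, adjusted p = 5.68e-10). Rap1b, a small GTPase that activates integrins, rose from 73.5 ± 3.89 to 255 ± 24.3 FPKM there (1.78 ± 0.09, adjusted p = 5.23e-08), and the focal adhesion protein gene Zyx rose by 1.58. With silencing 0 of 27 were called by limma at either time (4 and 7 had an unadjusted p under 0.05), and the smallest adjusted p was that of Src without LPS (-0.45 ± 0.09, adjusted p = 0.0689).

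Among CD44 partners and hyaluronan genes, 9 of 18 were tested. In control cells 2 rose with LPS and 5 fell, and in silenced cells 3 rose and 4 fell. Srgn, the granule proteoglycan serglycin, which can bind CD44, rose in both (1.89 ± 0.10 and 1.73 ± 0.10), and Hyal1, a hyaluronidase, fell from 80.4 ± 11.5 to 11.3 ± 8.52 FPKM in control cells (-2.94 ± 0.42, adjusted p = 0.000157). Srgn was also the 1 gene of the list called in silenced against control cells, at both times (0.68 ± 0.10, adjusted p = 0.0283, and 0.52 ± 0.10, adjusted p = 0.0477). The call was kept in 10 of 22 alternatives without LPS (adjusted p 0.0181 to 0.138) and in 4 of 22 after LPS (0.0251 to 0.188). With only the groups compared it was lost at both times (adjusted p = 0.138 and 0.16), and the log2 difference ranged from 0.62 to 0.77 and from 0.45 to 0.62. Ezr, which links CD44 to actin, was 14.1 ± 1.62 and 21.1 ± 1.62 FPKM in control and silenced cells without LPS (adjusted p = 0.0801). With silencing 3 of 9 had an unadjusted p under 0.05 by limma without LPS and 4 after LPS, beside 12% and 13% of all genes.

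Among other ligands of these receptors, 5 of 25 genes were tested and 3 rose with LPS in both kinds of cell. They were the matrix glycoprotein Tnc, the cytokine Tgfb1, whose latent form binds αv integrins, and Lgals3bp. Mean Tnc was 0.11 (control) and 0.15 (silenced) FPKM without LPS, and 4.09 and 7.99 FPKM with it. Tnc passed the filter only through its LPS libraries, so its rise was set by entry. Tgfb1 went from 28.6 ± 0.76 to 52.8 ± 0.85 FPKM in control cells (0.86 ± 0.09, adjusted p = 9.75e-06). With silencing 0 of 5 were called by limma at either time (0 and 1 had an unadjusted p under 0.05).

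Of 21 enzymes and related genes that modify or cut osteopontin or act in that proteolysis, 13 were tested. With LPS 6 rose and 3 fell in control cells, and 6 rose and 5 fell in silenced cells. Mmp9, a metalloproteinase, rose from 1.73 ± 0.38 to 17.8 ± 3.82 FPKM in control cells (2.78 ± 0.16, adjusted p = 1.85e-07), and Plaur, the urokinase receptor, from 15.1 ± 3.24 to 162 ± 5.74 FPKM (3.36 ± 0.16, adjusted p = 3.36e-08). Acp5, the tartrate-resistant phosphatase that can remove phosphate from osteopontin, was the 1 gene called with silencing: after LPS the control mean was 46.6 ± 6.50 FPKM and the silenced mean 30.1 ± 1.76 FPKM (-0.61 ± 0.10, adjusted p = 0.0307). The call was kept in 10 of 22 alternatives (adjusted p 0.0201 to 0.142), and the difference ranged from -0.70 to -0.51. Settings that lost it were only the groups compared (adjusted p = 0.142), no filter (0.0505), quantile normalization (0.0532), no intensity trend (0.0522) and depth as a covariate (0.075). The call was also lost without any 1 of the LPS libraries other than control replicate 3, or replicate 1 of either kind without LPS. Without LPS 0 of 13 were called by limma (7 had an unadjusted p under 0.05, as did 12% of all genes). After LPS 4 of 13 had an unadjusted p that low by limma, as did 13% of all genes.

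Transcription factor genes reported at the Spp1 gene gave no call with silencing. Of 33, 28 were tested, and 0 were called by limma without or with LPS (4 and 8 had an unadjusted p under 0.05). The smallest p values were those of Myc (-0.42 ± 0.14, adjusted p = 0.284) and Sp1 (-0.31 ± 0.12, adjusted p = 0.358) without LPS, and Myc (-0.56 ± 0.14, adjusted p = 0.105) and Ets2 (0.47 ± 0.13, adjusted p = 0.128) with LPS. With LPS 7 rose and 11 fell in control cells and 8 rose and 14 fell in silenced cells, while Spp1 gave no call. Myc rose by 3.12 ± 0.14 and the AP-1 member Jund by 1.30 ± 0.09 in control cells, and Fosl2, another AP-1 member, fell by 1.92 ± 0.15 (adjusted p = 2.04e-08, 4.92e-07 and 1.46e-06).

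Markers of most other cell types were near 0, but osteoclast markers were not. Each of the fibroblast, epithelial, endothelial, osteoblast, T and NK cell, B cell and neutrophil markers stayed under 1 FPKM in all 12. Of 8 osteoclast markers, 5 were at 1 FPKM or more in every library, among them Acp5 (19.7 to 53.4 FPKM), Dcstamp (12.7 to 43.9 FPKM) and Atp6v0d2 (12.7 to 38.2 FPKM), and Calcr was at 0 in all. Before LPS their sum was 95.7 to 101 FPKM (control) and 88.7 to 109 FPKM (silenced), and 157 to 182 and 132 to 146 FPKM after LPS. The sum joins markers that differed in direction with LPS, such as Atp6v0d2 (lower) and Ocstamp (higher). Between kinds of cell, each marker with separate ranges was lower in silenced cells. The share of all genes separate in that direction is not given, so nothing is read from this. Ocstamp was at 4.08 to 4.85 (control) and 1.51 to 2.84 FPKM (silenced) before LPS, and 27.0 to 30.3 and 13.1 to 15.8 FPKM after it. Acp5 before LPS was at 24.6 to 29.0 and 19.7 to 21.3 FPKM, while Ctsk and Dcstamp overlapped at both times. Atp6v0d2 was at 32.9 to 38.2 and 29.5 to 34.9 FPKM before LPS, and 17.6 to 23.0 and 12.7 to 18.4 FPKM after it.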

How the data were processed

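RNA-seq libraries (12, in 4 groups of 3) were used as gene-level FPKM deposited by the authors. Per the submitters' processing notes, HISAT2 and StringTie were used with GRCm38. Versions, annotation, strand setting and the handling of multiply mapped reads: not given in the sources used here. Because FPKM hold no counts, count models were not applied. Depth (7.37 to 17.6 M fragments) was approximated by the most frequent low product of FPKM and length among single-transcript genes. The range searched for that product was set after its output had been seen. Within 1% of whole steps lay 3.80% to 15.0% of low values (2% if spread evenly). The step was the most frequent of these same values, which count as hits, so 2% is not a chance level for this share. A depth may be off by a whole factor, so no counting interval is given. Gene positions are from GENCODE M21 (GRCm38).

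Genes reaching 1 FPKM in 3 libraries were fitted with limma 3.58.1 (R 4.3.3) on log2(FPKM + 1), using all 12 libraries, group means, an intensity trend and 8 residual degrees of freedom. Changes of low genes are understated on this scale. Benjamini-Hochberg adjustment covered 13078 genes, 2-sided, with calls at adjusted p under 0.05. The fit was tested on simulated data. Members and the 6 other lists were chosen with earlier results of these data known. Genes named from lists had the smallest p in a comparison, and 1 result is not reported here. Genes most like a member were ranked by Pearson's r among tested genes reaching a mean of 5 FPKM in a group, predicted, clone and pseudogene names left out. Alternatives were a pseudocount of 0.1, no filter, a filter at 5 FPKM, 3 scalings, a replicate block, only the groups compared, no trend, each library left out and, added after seeing the data, depth as a covariate.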

Additional observations from a re-analysis of the deposited data

How the results depend on the processing

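Across 22 alternatives (21 for the interaction), the LPS calls of Itga5, Cd44, Itgav and Itga4 kept their direction and stayed past the threshold in both kinds of cell, and no receptor gene was called with silencing and no tested gene in the interaction. The Spp1 difference that chose the group, given as a description, ranged from 0.49 to 0.81 without and 0.76 to 0.98 with LPS. Spp1 with LPS in silenced cells passed under median-ratio scaling (0.48), and 4 to 6 genes were called there. Without 1 library it ranged from 0.051 to 0.34. In control cells Spp1 changed sign with a common sum (-0.017) and quantile normalization (-0.32), and ranged from -0.039 to 0.060 without 1 library.

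Uncalled values near 0 changed sign under some settings. With a common sum they were -0.019 for Itga5 with silencing after LPS and -0.042 for Itgb1 with LPS in silenced cells. Quantile normalization gave -0.014 for Cd44 and -0.033 for Itga4 with silencing without LPS, -0.036 for Itga5 with silencing after LPS and -0.090 for Itgb1 with LPS in silenced cells. Median-ratio scaling gave 0.19 for Itgb1 with LPS in control cells. Depth as a covariate gave -0.015 for Cd44 with silencing without LPS and -0.038 for Itgb1 with LPS in silenced cells.

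Leaving out 1 library gave, with silencing without LPS, -0.069 to 0.092 for Cd44, -0.27 to 0.15 for Itgav and -0.017 to 0.17 for Itga4, and after LPS -0.011 to 0.086 for Itga5. With LPS it gave -0.075 to 0.023 (control) and -0.013 to 0.051 (silenced) for Itgb1 and -9.4e-05 to 0.20 for Itgb5 in control cells. For the interaction it gave -0.0041 to 0.25 for Cd44, -0.41 to 0.032 for Itgav, -0.00061 to 0.097 for Itgb1 and -0.024 to 0.16 for Itga4.

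Whether the replicate numbers pair the samples is not settled. Deviations of same-numbered libraries correlated by -0.027 to 0.19, and did not pass 0.1 for every pair of any comparison. In the LPS comparisons each library correlated best with its own number, and in the silencing comparisons only replicate 3 did. With the number as a block, Itgb5 with LPS in silenced cells passed (-0.33, adjusted p = 0.0129), no other call among these genes changed, and 48 genes in place of 28 were called with silencing without LPS.

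Counts over all genes moved with the settings. Member counts with silencing and in the interaction were 0 and could not fall, so their stability is not compared with these. Calls with silencing without LPS fell from 28 to 6 with only the groups compared, 10 without the trend, 9 with depth and as few as 3 without 1 library (control replicate 1, no LPS). Calls after LPS fell from 94 to 0 with only the groups compared (1622 at an unadjusted p under 0.05 by limma), 38 with quantile normalization, 50 without the trend, 18 with depth and as few as 10 without 1 library (silenced replicate 2, LPS). Interaction calls went from 8 to between 0 and 20 without 1 library, 5 with a pseudocount of 0.1 and 4 without the trend. Of LPS calls in control cells 31.7% were higher, against 51.8% with median-ratio scaling and 42.6% with quantile normalization, and in silenced cells 26.8%, against 51.1% and 40.2%. With silencing after LPS 43.6% were higher, against 60.7%, and 73.7% with quantile normalization, and in the interaction 62.5% against 83.3% with median-ratio scaling. The causes were not tested. Itgb3 was tested only without a filter on low values, and was not called.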
